A study of Mus musculus with 6 samples.

Results

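The 35 interferon-stimulated genes described here are transcripts that cells switch on when they meet interferon or viral RNA. They were chosen by symbol, as listed members of the IFIT and OAS families, the RNA sensors, the interferon-inducible GTPases, the transcription factors of the response and further antiviral effectors. All 35 had a row among the 37620 gene identifiers of the count files. RNA was sequenced from 6 libraries of mature brown fat on a C57BL/6 background, 3 labelled Phospho1 knockout and 3 labelled wild type. Each library pooled 3 mice that were 6 weeks old. No other treatment is given, and neither the making of the knockout allele nor any restriction of it to a tissue is described. The comparison asks how transcript levels differ in brown fat cells of mice with these labels.

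Type I interferons bind a receptor at the cell surface, and the kinases on it phosphorylate STAT proteins, STAT2 among them. These join IRF9 in a complex that enters the nucleus and binds the interferon-stimulated response element (ISRE), while interferon gamma acts through the gamma-activated site (GAS). The genes so induced sense viral RNA, block translation and viral assembly, and feed back on the pathway. Fat cells carry the receptors and can respond to interferon themselves, and immune and endothelial cells between them respond as well.

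Library totals lay between 10576800 and 14239307 counts. The mitochondrial genome held 39.1%, 54.3% and 56.5% of them in the knockout libraries and 40.7%, 39.3% and 54.3% in the wild-type libraries, so the depth left for nuclear genes was lower and uneven. Phospho1, a phosphatase of phosphocholine and phosphoethanolamine, had 18, 15 and 17 counts in the libraries labelled knockout and 13, 5 and 5 counts in the libraries labelled wild type. Every knockout-labelled library was above every wild-type library, at a log2 fold change of 1.53 that did not pass the test described below (edgeR adjusted p = 0.0563). GENCODE exons of Zfp652 cover 89.6% of its exon sequence on the same strand, and exons of Abi3 cover 84.2% on the other strand. These few counts therefore cannot check the labels, and directions are given for the libraries as labelled. The 8 fat cell markers, among them Adipoq, Fabp4 and Ucp1, were abundant in all 6 libraries, and their summed level was 22540 to 31020 CPM (counts scaled to library size) in knockout and 19370 to 27370 CPM in wild type. Fabp4 was the largest part of that sum. The other 7 summed to 11330, 10220 and 10370 CPM in knockout and 7208, 9883 and 7712 CPM in wild type, higher in knockout without overlap. Of these 7, Ucp1 averaged 4196 CPM in knockout and 2664 CPM in wild type without overlap, and each of the others overlapped. Cidea, Adipoq and Cidec had log2 fold changes of 0.47, 0.17 and 0.04, and Plin1, Lipe and Pparg of -0.05, -0.22 and -0.15. None of the 8 fat cell markers passed that test (edgeR, 1 higher at an unadjusted p under 0.05, which was Ucp1, and 0 by adjusted p in DESeq2 and in limma-voom).

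Of the 35 genes, 8 were lower in the knockout-labelled libraries and 0 were higher. The 8 were Ifit1, Ifit2, Ifit3b, Eif2ak2, Ifih1, Iigp1, Gbp7 and Rsad2, and their log2 fold changes ran from -2.57 to -1.15. The test was edgeR's quasi-likelihood F test with Benjamini-Hochberg adjustment over all 12068 tested genes and a threshold of 0.05. It could be run on 32 of the 35, since Oas2, Mx1 and Mx2 had too few counts. The 8 were 25.0% of those 32, and 7.52% of all tested genes were lower. The members were chosen with earlier results of these data known, so these shares describe the list and do not test it. Among all tested genes 1.63% were higher, and beside the count of 0 higher members stand 3 at an unadjusted p under 0.05 in edgeR, in DESeq2 and in limma-voom, with 0 by adjusted p in the other tools as well. At that unadjusted cut-off in edgeR 12 members were lower, and 3718 of the 12068 tested genes stood in either direction. The same background belongs to the unadjusted edgeR counts given below for sub-groups and further lists.

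The sets of 3 libraries did not overlap for 19 of the 32. All knockout libraries were below all wild-type libraries for 14 of them, where 19.6% of all tested genes did the same, and above them for 5, where 15.8% did. The median log2 fold change was -0.24 over the 32 and 0.03 over all tested genes, with 19 members below 0 and 13 above. The list therefore held both directions, and its lower calls lay in 4 of its 7 sub-groups. The p-values rest on the spread between 3 pools a group. Each library holds RNA from many cells together, so fewer cells of a kind and less RNA per cell cannot be told apart.

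Several libraries bore on the count of 8. Wild-type library 1 was the highest of the 6 libraries for 14 members and for all 8 that passed. Knockout library 3 was the lowest for 10 members and for 5 of the 8. Without wild-type library 1, 0 members were lower by adjusted p (edgeR, 9 at an unadjusted p under 0.05), and 0 genes of the whole table passed. In that fit 2251 of 12279 tested genes had an unadjusted p under 0.05, in either direction. Without knockout library 3 the count of lower members was also 0 (edgeR, 10 at an unadjusted p under 0.05). There 0 genes of the whole table were lower by adjusted p, and 2672 of 12445 had an unadjusted p under 0.05, in either direction. The member count was 2 without knockout library 2, where 258 of 12444 tested genes were lower. It was 4 without wild-type library 3, where 366 of 12418 were lower. The log2 fold changes of the 8 stayed negative, with an unadjusted p under 0.05, each time 1 of the 6 libraries was left out, and between 1 (Gbp7) and 4 (Ifit1 and Ifih1) of those 6 fits called each gene.

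**Figure D1:**
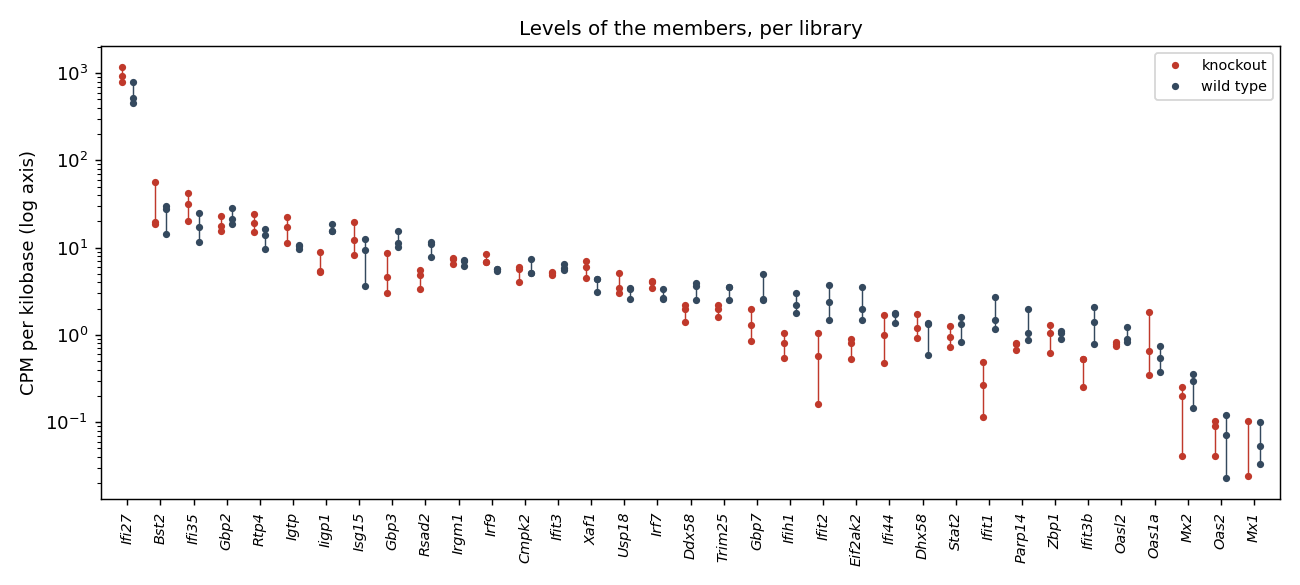
Level of each of the 35 genes in every library, in CPM per kilobase of the longest annotated transcript on a log axis, with genes in falling order of their mean. Points left of each gene's tick are the 3 knockout libraries, points right of it the 3 wild-type libraries, and a line joins the lowest and highest of a group; the 1 knockout library with 0 counts of Mx1 has no point. Ifi27 stands far above the other genes, and Mx2, Oas2 and Mx1 lie at the low end.

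Per kilobase of transcript, the 35 genes spanned several orders of magnitude in brown fat. Ifi27, an interferon-inducible protein of mitochondrial and nuclear membranes, averaged 973 ± 201 CPM per kilobase in knockout and 588 ± 179 in wild type (SD, n = 3 each). Bst2, Ifi35, Gbp2 and Rtp4 came next, at means over all 6 libraries of 27.8, 24.6, 20.7 and 16.4 CPM per kilobase. At the other end Mx2, Oas2 and Mx1 averaged 0.215, 0.0747 and 0.0527. The order was thus led by a gene that did not pass the test. Ifi27 was the largest single part of the summed level of the whole list, which was 1651, 1147 and 1344 CPM in the knockout libraries and 1080, 1243 and 918 CPM in the wild-type libraries. Without Ifi27 the sum was 487, 368 and 435 CPM in knockout and 569, 471 and 476 CPM in wild type. The groups overlapped in both sums, and the mean of knockout lay above that of wild type with Ifi27 and below it without.

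The promoters of these genes were read for the ISRE and GAS letters to see which members hold them. The windows are RefSeq promoter entries of mouse build GRCm38.p6, from 250 bases before to 50 bases after the annotated start, written 5′ to 3′ along the gene. Entries were found for 25 of the 35 symbols, and those of Iigp1, Parp14, Mx2, Rtp4, Usp18, Dhx58, Oas2, Mx1, Ifi27 and Zbp1 were not used here. The 6 windows below are shown because 4 belong to genes that were lower (Ifit1, Ifit3b, Rsad2, Gbp7) and 2 to genes with the same letters that did not pass (Ifit3, Isg15). They lie at chr19:34640639-34640938 on the plus strand (Ifit1), chr19:34607707-34608006 on the plus strand (Ifit3b), chr19:34583279-34583578 on the plus strand (Ifit3), chr12:26456403-26456702 on the minus strand (Rsad2), chr3:142530086-142530385 on the plus strand (Gbp7) and chr4:156200769-156201068 on the minus strand (Isg15). Capitals mark each match to the ISRE core on either strand.
Ifit1: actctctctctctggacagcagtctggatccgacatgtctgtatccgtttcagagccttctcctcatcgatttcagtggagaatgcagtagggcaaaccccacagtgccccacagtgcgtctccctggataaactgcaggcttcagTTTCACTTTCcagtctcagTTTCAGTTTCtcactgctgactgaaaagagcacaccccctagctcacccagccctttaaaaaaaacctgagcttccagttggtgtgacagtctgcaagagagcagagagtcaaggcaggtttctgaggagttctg
Ifit3b: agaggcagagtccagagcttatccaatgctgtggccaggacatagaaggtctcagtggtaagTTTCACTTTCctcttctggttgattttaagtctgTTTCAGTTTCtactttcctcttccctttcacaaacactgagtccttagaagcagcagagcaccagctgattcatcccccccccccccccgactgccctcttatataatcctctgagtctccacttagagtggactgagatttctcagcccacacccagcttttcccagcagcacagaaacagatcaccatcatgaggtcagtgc
Ifit3: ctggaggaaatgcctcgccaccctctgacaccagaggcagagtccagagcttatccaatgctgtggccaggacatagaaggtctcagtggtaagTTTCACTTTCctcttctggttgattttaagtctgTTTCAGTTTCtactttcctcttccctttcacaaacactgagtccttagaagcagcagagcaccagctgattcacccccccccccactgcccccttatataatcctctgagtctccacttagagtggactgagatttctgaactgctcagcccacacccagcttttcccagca
Rsad2: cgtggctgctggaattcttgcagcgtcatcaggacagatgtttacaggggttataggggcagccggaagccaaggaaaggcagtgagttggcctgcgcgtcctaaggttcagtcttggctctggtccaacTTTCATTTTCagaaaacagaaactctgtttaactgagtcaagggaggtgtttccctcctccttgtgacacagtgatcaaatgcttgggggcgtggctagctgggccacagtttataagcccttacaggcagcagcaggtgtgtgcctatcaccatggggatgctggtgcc
Gbp7: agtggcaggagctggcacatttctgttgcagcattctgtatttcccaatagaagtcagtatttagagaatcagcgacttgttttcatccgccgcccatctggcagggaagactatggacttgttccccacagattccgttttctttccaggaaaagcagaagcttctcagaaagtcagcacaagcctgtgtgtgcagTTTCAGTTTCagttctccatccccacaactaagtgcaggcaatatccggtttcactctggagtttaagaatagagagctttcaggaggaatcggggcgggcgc
Isg15: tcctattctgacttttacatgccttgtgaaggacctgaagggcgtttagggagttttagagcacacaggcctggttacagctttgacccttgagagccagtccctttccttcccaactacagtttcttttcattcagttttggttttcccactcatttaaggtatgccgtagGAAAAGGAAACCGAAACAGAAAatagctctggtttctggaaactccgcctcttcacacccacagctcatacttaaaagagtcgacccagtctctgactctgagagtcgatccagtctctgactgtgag

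The ISRE core was searched as GAAANNGAAA, where N is any base, on both strands. It was present in 16 of the 25 members' promoters (64.0%), and in 3.99% of 27025 genes or 3.44% of 32851 windows over the whole table. The GAS was searched as TTCNNNGAA, which reads the same on either strand, and was present in 7 of the 25 (28.0%) and in 9.55% of all genes. Matches of 1 motif may overlap each other: the 3 in Isg15 form the single run of capitals printed above.

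Holding the ISRE core did not separate the genes that passed from those that did not. The core was present in 6 of the 7 lower genes whose windows were used, all but Ifit2, and in 10 of the 18 that did not pass. Ifit1, with the most negative fold change of the list, has a pair of matches that begin 104 and 85 bases before the start. Ifit3 and Ifit3b carry the same pair of capital runs with the same stretch between them, beginning 156 and 122 bases before the annotated start of Ifit3 and 188 and 154 bases before that of Ifit3b. Shifted by 32 bases and compared without gaps, their windows are equal at 201 of 268 positions (75.0%). Bases held by only Ifit3 or only Ifit3b put the letters after them out of step, so this share understates the likeness. Even so, Ifit3b was lower and Ifit3 did not pass. In Isg15 the matches begin 78, 72 and 66 bases before the start, in Rsad2 120 and in Gbp7 53 bases before it, and in Ifih1 and Eif2ak2 they begin at bases 33 and 19 counted from the start. The GAS was present in 3 of the 7 lower genes and in 4 of the 18 that did not pass, and Gbp7 holds 2 matches. Only exact matches to the searched letters were counted, so near matches are left out of these counts. A match is a description of these letters and not of binding.

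**Figure D2:**
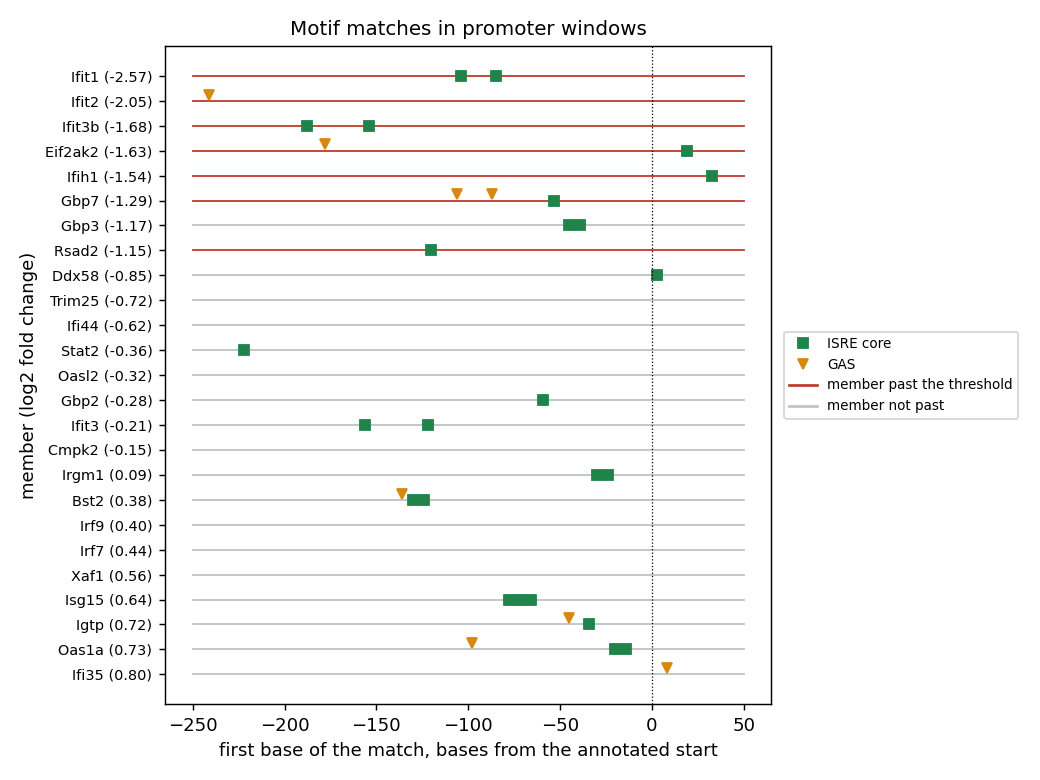
Position of each ISRE core (squares) and GAS match (triangles) in the promoter windows of the 25 members searched, in bases from the annotated start. The log2 fold change of knockout over wild type is in brackets. Genes run from the most negative fold change at the top to the most positive at the bottom, on red lines where the gene passed the test and grey lines where it did not. ISRE cores are seen on 6 of the 7 red lines and on 10 of the 18 grey lines.

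The IFIT family held the strongest decrease of the list. These proteins bind foreign RNA by its unusual cap end and block its translation. Ifit1 (chromosome 19), which recognises RNA without the host's cap methylation, had 0.708, 1.31 and 0.306 CPM in the knockout libraries and 7.22, 3.07 and 3.95 CPM in the wild-type libraries. The highest knockout library was below the lowest wild-type library, although these levels rest on only 8, 16 and 3 counts in knockout and 128, 45 and 44 counts in wild type. The log2 fold change was -2.57 (SE 0.505, edgeR adjusted p = 0.0185).

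Ifit2, a partner of Ifit1 that also promotes cell death in infected cells, had 4.07, 2.21 and 0.613 CPM in knockout and 14.1, 5.60 and 9.15 CPM in wild type. The groups did not overlap, and both were widely spread. Its log2 fold change was -2.05 (SE 0.536, edgeR adjusted p = 0.0411). Ifit3b, a mouse copy of Ifit3, had 1.06, 1.07 and 0.511 CPM in knockout and 4.23, 1.57 and 2.78 CPM in wild type, again without overlap. Its log2 fold change was -1.68 (SE 0.471, edgeR adjusted p = 0.0468).

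Ifit3, which in humans stabilises the IFIT complex, was the most abundant of the 4 per kilobase. It had 8.58, 9.02 and 9.29 CPM in knockout and 11.3, 10.1 and 9.60 CPM in wild type. The knockout libraries were below the wild-type libraries by a small margin, with a log2 fold change at -0.21 (SE 0.248, edgeR adjusted p = 0.579). The longest transcripts of Ifit3 and Ifit3b are 97.8% identical over 1700 bases, so the counting rules, not given in the sources used here, could have split or dropped reads from either. Summed, Ifit3 and Ifit3b had 9.64, 10.1 and 9.80 CPM in knockout and 15.6, 11.7 and 12.4 CPM in wild type, which do not overlap either.

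Within single libraries the balance of the family differed in the same direction. The counts of Ifit1 divided by those of Ifit3 were 0.0825, 0.145 and 0.033 in knockout and 0.637, 0.304 and 0.411 in wild type. The highest in knockout was below the lowest in wild type. Such a ratio needs no scaling between libraries, but any length trend of a library remains in it: with the length and GC offsets described below, Ifit1 was at -2.44 and Ifit3 at -0.47. The ratio was chosen after the values were seen and was not tested, and the same holds for the other ratios given below.

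**Figure D3:**
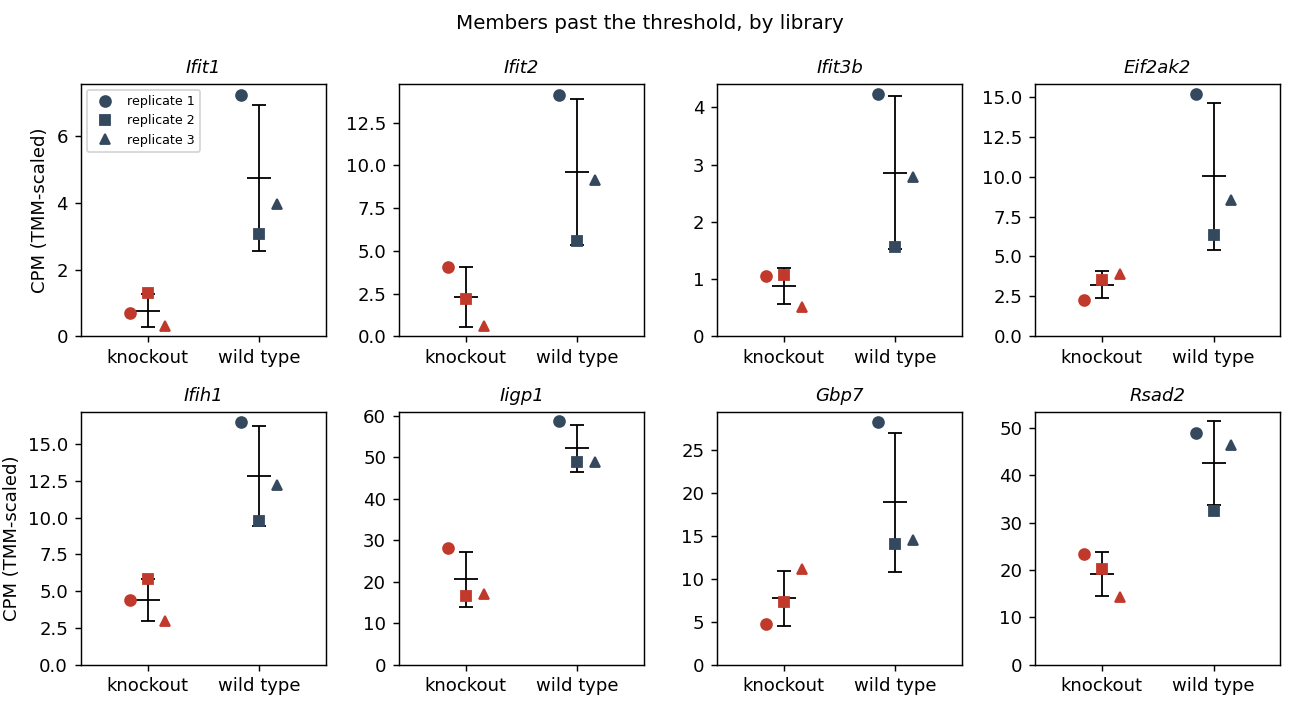
Level in CPM of the 8 genes that passed the test, 1 panel a gene, in each of the 3 knockout and 3 wild-type libraries. Bars give the mean and SD of a group, and marker shapes the replicate number, which is not known to mark pairs. In every panel the highest knockout library is below the lowest wild-type library, and wild-type library 1, the circle, is the highest.

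Among the 5 RNA sensors and nucleic acid-activated effectors, 2 were lower and 3 did not pass. Ifih1 encodes MDA5, the sensor of long double-stranded RNA that signals through the adaptor MAVS. It had 4.42, 5.82 and 2.96 CPM in the knockout libraries and 16.5, 9.76 and 12.2 CPM in the wild-type libraries. The groups lay well apart, with a log2 fold change at -1.54 (SE 0.328, edgeR adjusted p = 0.0216).

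Eif2ak2 encodes PKR, the kinase that halts translation when it binds double-stranded RNA. Its levels were 2.30, 3.53 and 3.88 CPM in knockout and 15.2, 6.35 and 8.53 CPM in wild type. Wild-type library 1 stood far above the rest, and the remaining wild-type libraries still exceeded each knockout library. The log2 fold change was -1.63 (SE 0.374, edgeR adjusted p = 0.0264). Without strand information, 3.4% of its exonic bases cannot be told apart from the antisense transcript Gm26637.

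Ddx58, or RIG-I, the sensor of RNA with a triphosphate end, had the highest level per kilobase of the 5. It had 5.40, 8.53 and 7.66 CPM in knockout and 15.3, 9.62 and 14.1 CPM in wild type, without overlap. The log2 fold change of -0.85 did not pass (SE 0.293, edgeR adjusted p = 0.0812). Dhx58, or LGP2, which tunes both sensors, was at 0.22 with overlapping groups, and its sign turned with the scaling used (-0.06 on total counts alone). Zbp1, a sensor of left-handed nucleic acid that can trigger necroptosis, was at -0.05, and with upper-quartile scaling at 0.01. The counts of Ifih1 divided by those of Dhx58 were 1.06, 2.03 and 1.32 in knockout and 5.05, 3.04 and 8.50 in wild type, so each knockout library was below every wild-type library. As counts not divided by length, such ratios compare libraries with each other and not the genes. With the offsets Ifih1 was at -0.83 and Dhx58 at -0.07.

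No OAS gene passed. These enzymes make oligoadenylates that switch on RNase L. Oasl2, a mouse OAS-like protein and the family's highest per kilobase, had 2.56, 2.46 and 2.35 CPM in knockout and 2.59, 2.80 and 3.86 CPM in wild type. The groups adjoined without overlap, and the log2 fold change was -0.32 (SE 0.330, edgeR adjusted p = 0.521). Oas1a was at 0.73 (SE 0.565), with knockout library 1 at 3.45 CPM and the other knockout libraries at 0.656 and 1.23 CPM, against 1.41, 1.02 and 0.718 CPM in wild type. Its transcript is 97.6% identical to that of Oas1g over 1861 bases. Oas2 had 4, 2 and 4 counts in knockout and 5, 7 and 1 counts in wild type and was not tested. Of the pair tested, 0 had an unadjusted p under 0.05 in edgeR, and 0 were called by DESeq2 or limma-voom.

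The GTPases held 2 lower genes among the 6 tested. Iigp1 is an immunity-related GTPase of the mouse that attacks the vacuoles of intracellular parasites. It had 28.2, 16.5 and 17.1 CPM in the knockout libraries and 58.7, 48.8 and 48.9 CPM in the wild-type libraries. This gap was wide against the spread of either group, and the log2 fold change was -1.34 (SE 0.268, edgeR adjusted p = 0.0189). Its transcript is 88.2% identical to that of Gm5970 over 1224 bases and 86.5% identical to that of Gm4951 over 1280 bases. Gbp7, a guanylate-binding protein of the same defence, had 4.78, 7.30 and 11.1 CPM in knockout and 28.2, 14.0 and 14.4 CPM in wild type. The groups were close apart from wild-type library 1, and the log2 fold change of -1.29 lay at the edge of the threshold (SE 0.370, edgeR adjusted p = 0.0498). Of its exonic bases 11.35% are shared with the pseudogene Gm43802.

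Gbp2, a guanylate-binding protein that coats the vacuoles of parasites and the most abundant GTPase per kilobase, had 38.7, 44.8 and 57.4 CPM in knockout and 71.1, 46.5 and 53.3 CPM in wild type. Its groups overlapped, and the log2 fold change was -0.28 (SE 0.252, edgeR adjusted p = 0.457). Gbp3, of the same family, was below wild type in all 3 knockout libraries, at -1.17 (SE 0.356, edgeR adjusted p = 0.0590). Relative to Gbp2 in the same library, Gbp7 counts were 0.124, 0.163 and 0.194 in knockout and 0.397, 0.301 and 0.271 in wild type, without overlap. The Gbp7 transcript is the longer, 5614 against 2516 bases, and with the length and GC offsets Gbp7 was at -0.41 and Gbp2 at -0.32, so little of that difference remained. The like ratio for Gbp3 was 0.611, 0.278 and 0.142 in knockout and 0.581, 0.655 and 0.517 in wild type, and knockout library 1 lay within the range of wild type.

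Igtp and Irgm1 regulate the other immunity-related GTPases, and neither passed. Igtp lay above wild type in each knockout library, with a log2 fold change of 0.72 that did not pass (SE 0.274, edgeR adjusted p = 0.108). Irgm1 was at 0.09, and at -0.18 on total counts alone. Part of the Igtp transcript, 542 bases, is 89.9% identical to Irgm2. Mx1 and Mx2 encode dynamin-like GTPases that trap viral nucleocapsids, and C57BL/6 mice carry a defective Mx1. Mx1 had 4, 1 and 0 counts in knockout and 2, 5 and 2 counts in wild type. Mx2 had 7, 6 and 1 counts in knockout and 13, 13 and 4 counts in wild type, too few for a test.

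The 3 transcription factors did not pass, and 2 of them, both of the IRF family, lay above wild type in all knockout libraries. Irf9, the DNA-binding part of the complex that reads the ISRE, had 26.6, 26.3 and 32.9 CPM in knockout and 21.03, 21.9 and 22.2 CPM in wild type. The groups did not overlap, and the log2 fold change was 0.40 (SE 0.226, edgeR adjusted p = 0.248). Irf7, the factor that amplifies type I interferon production, was at 0.44 (SE 0.254, edgeR adjusted p = 0.256), also without overlap. Stat2, the STAT protein that carries the activation domain of the complex, was at -0.36 with overlapping groups. In edgeR 0 of the 3 had an unadjusted p under 0.05, and 0 were called by DESeq2 or limma-voom.

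Of the 4 genes of the ISG15 system and signalling regulators, 0 passed (edgeR, 2 lower at an unadjusted p under 0.05, and 0 called by DESeq2 or limma-voom). Isg15, the ubiquitin-like protein that is attached to other proteins after interferon, had 15.04, 6.23 and 9.29 CPM in knockout and 7.05, 9.62 and 2.78 CPM in wild type. The groups overlapped, with a log2 fold change at 0.64 (SE 0.434, edgeR adjusted p = 0.324). The annotated transcript AC151275.1 is 95.2% identical to it over 482 bases. Usp18, which removes ISG15 and damps the receptor, was at 0.31 with overlapping groups. Trim25, a ubiquitin ligase that acts on RIG-I, and Parp14, an ADP-ribosyltransferase, were below wild type in all knockout libraries, at -0.72 (edgeR adjusted p = 0.0943) and -0.80 (edgeR adjusted p = 0.139).

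Of the 8 other antiviral effectors, 1 was lower. Rsad2, or viperin, makes a nucleotide analogue that stops viral RNA synthesis. It had 23.4, 20.2 and 14.2 CPM in knockout and 49.0, 32.4 and 46.4 CPM in wild type. The groups lay apart, and the log2 fold change was -1.15 (SE 0.271, edgeR adjusted p = 0.0291). Cmpk2, a nucleotide kinase of mitochondria whose gene lies beside Rsad2 on chromosome 12, had 18.5, 19.8 and 13.4 CPM in knockout and 16.8, 16.8 and 24.1 CPM in wild type. The groups overlapped, and its log2 fold change was -0.16 (SE 0.265, edgeR adjusted p = 0.704). In each library the counts of Rsad2 divided by those of Cmpk2 were 1.26, 1.02 and 1.06 in knockout and 2.93, 1.93 and 1.93 in wild type, and again the libraries of the groups did not overlap. With the offsets Rsad2 was at -0.71 and Cmpk2 at 0.02.

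Ifi27, the most abundant member, had 1164, 779 and 909 CPM in knockout and 511, 772 and 441 CPM in wild type. Its lowest knockout library was just above its highest wild-type library, and the log2 fold change of 0.73 did not pass (SE 0.274, edgeR adjusted p = 0.105). Ifi35, which pairs with the induced protein NMI, was at 0.80 (SE 0.329, edgeR adjusted p = 0.126) with overlapping groups, and 16.79% of its exonic bases lie opposite the antisense transcript Gm11626. Xaf1, an antagonist of apoptosis inhibitors, and Rtp4, a chaperone that binds viral RNA, were both at 0.56, without overlap in Xaf1 and with it in Rtp4. Bst2, or tetherin, which holds budding virus to the cell, was at 0.38 with knockout library 1 at 44.5 CPM and the others at 15.4 and 14.9 CPM, against 22.1, 24.0 and 11.2 CPM in wild type. Ifi44 was at -0.62 with overlapping groups.

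**Figure D4:**
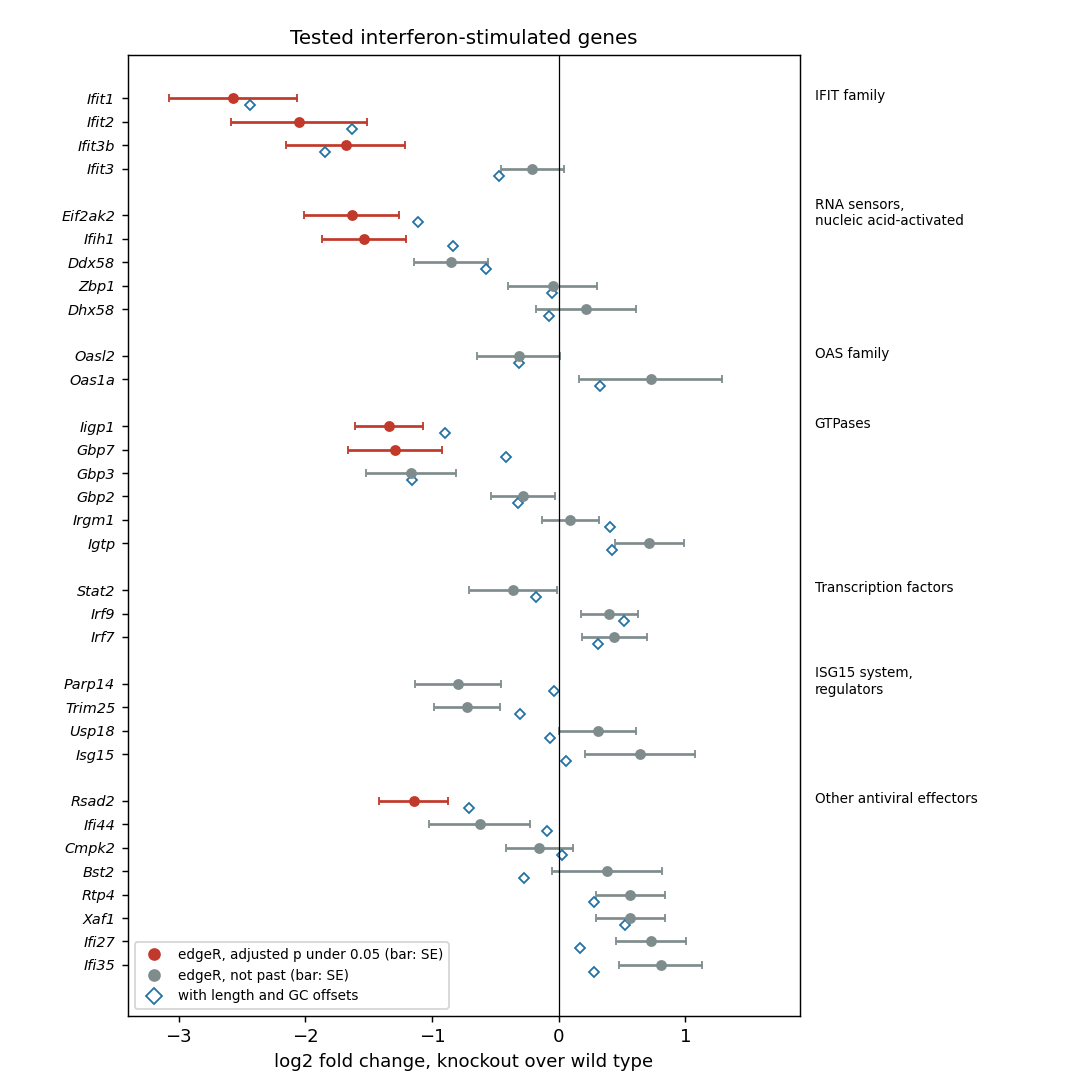
Log2 fold change of knockout over wild type for the 32 tested genes by sub-group, with bars of 1 SE worked out from the edgeR F statistic. Diamonds give the same gene in the fit that adds length and GC offsets. Red points passed at an adjusted p under 0.05 and grey points did not, and the 8 red points are the lowest in their sub-groups. Most diamonds lie nearer to 0 than their points, those of Gbp7 and Parp14 by the most, while the diamond of Ifit3b lies further out.

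The libraries differed in how transcript levels depended on transcript length, and the members' fold changes are given here beside that trend. Over all tested genes the median log2 fold change was 0.59 in the shortest decile by length of the longest annotated transcript and -0.78 in the longest decile. Across the 32 members, which are not independent replicates, Spearman's rho of fold change with length was -0.593, close to -0.583 across all genes with a length. The slope of each library's log2 ratios on log2 length was -0.238, -0.093 and -0.249 in the knockout libraries and 0.306, -0.025 and 0.2996 in the wild-type libraries. Wild-type library 1, the highest for all 8 lower members, had the steepest positive slope, and wild-type library 3 was nearly as steep. A link between a library's slope and its levels of the 8 was not tested. The 8 lower members have transcripts of 2000 to 5614 bases, with a median of 4003.5 bases, and the 13 above 0 have a median of 1885 bases. Relative to the median of its own length decile, Ifit1 was at -2.77 and Ifit3b at -1.97, while Gbp7 was at -0.68. Genes called lower lie below these medians by their selection. Of all 32, 19 were below the median of their decile and 13 above.

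When offsets for length and GC content were put in the edgeR fit, no member passed. The smallest adjusted p of a member was 0.0622, and over all tested genes 1 was higher and 0 lower. At an unadjusted p under 0.05 in that fit, 9 members were lower, where 11.1% of all tested genes were, and 1 was higher, where 12.0% were. Of the 8, 7 were among those 9, and Gbp7 was not. The list's median was then -0.14, against 0.03 over all genes.

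The sub-groups moved unequally under these offsets. Ifit1, Ifit2 and Ifit3b were at -2.44, -1.63 and -1.85 (edgeR adjusted p = 0.0622, 0.0920 and 0.0769), and Gbp3 was at -1.16. The IFIT median of -1.87 became -1.74. Eif2ak2, Iigp1, Ifih1 and Rsad2 were at -1.11, -0.90, -0.83 and -0.71 (edgeR adjusted p = 0.110, 0.0622, 0.0947 and 0.0936). Gbp7 moved most of the 8, to -0.41 (edgeR adjusted p = 0.561), and Parp14 moved to -0.04. Irf9 and Xaf1 were at 0.52 each, while Ifi27 and Isg15 were at 0.17 and 0.05. These offsets used the longest annotated transcript. With the median transcript instead, Eif2ak2, Iigp1, Ifih1 and Rsad2 were at -1.46, -0.62, -0.88 and -0.42 (edgeR adjusted p = 0.0611, 0.112, 0.0788 and 0.247). That fit called 142 genes lower and 83 higher, with 0 members among them. Of the 8, 6 had an unadjusted p under 0.05 in it, as had 3162 of 12068 tested genes.

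**Figure D5:**
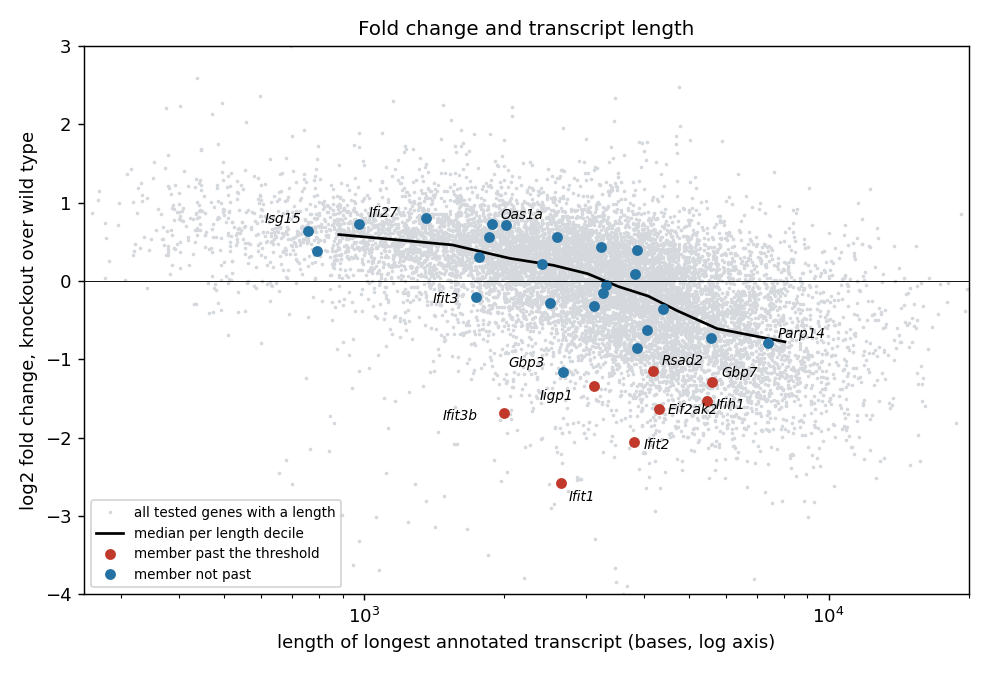
Log2 fold change of knockout over wild type against the length of the longest annotated transcript, in bases on a log axis, for all tested genes with a length (grey), with the median of each length decile as a line. Red points are the 8 members past the threshold and blue points the 24 that were not. The line falls with length, and red points lie below it by their selection, with Ifit1 at -2.77 and Ifit3b at -1.97 from the median of their decile.

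Upstream of the 35 genes, transcripts of the interferons themselves were at or near the detection limit. Of 21 type I, II and III interferon genes looked for, 11 had a row, and 10 of these were at 0 counts in all 6 libraries. A count of 0 allows a level of up to 0.169 to 0.306 CPM, taken as 3 counts and covering counting error only. Ifng, which encodes interferon gamma, had 2, 0 and 0 counts in knockout and 0, 2 and 0 counts in wild type.

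Of the receptors, kinases and STATs that carry the signal, 10 were tested and 0 passed (edgeR, 4 lower at an unadjusted p under 0.05; DESeq2 called 2 lower and limma-voom 0). Ifnar1, a chain of the type I receptor, had 19.6, 24.6 and 18.7 CPM in knockout and 34.6, 26.9 and 31.1 CPM in wild type. The groups did not overlap, and the log2 fold change was -0.56 (SE 0.237, edgeR adjusted p = 0.138). Ifnar2, the other chain, was at 0.65 with overlapping groups (SE 0.313, edgeR adjusted p = 0.181).

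Among 12 tested sensing adaptors, kinases and receptors that feed interferon production, 1 was lower. It was Tlr3, the endosomal receptor of double-stranded RNA, with 3.36, 3.86 and 2.55 CPM in knockout and 10.3, 8.12 and 10.4 CPM in wild type. Its groups lay well apart, with the log2 fold change at -1.55 (SE 0.294, edgeR adjusted p = 0.0176), and at -0.87 with the offsets (edgeR adjusted p = 0.0775). The 9 tested interferon regulatory factors outside the list had 0 calls (edgeR, 1 lower and 2 higher at an unadjusted p under 0.05; 0 in DESeq2 and limma-voom), with Irf1 at 0.28 (edgeR adjusted p = 0.430). The 15 tested negative regulators had 0 calls in edgeR, 2 lower and 2 higher at an unadjusted p under 0.05, and 1 lower and 1 higher in DESeq2 (0 in limma-voom).

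Of 53 further interferon-stimulated genes that were tested, 4 were lower and 2 higher, a lower share near that of all tested genes. The guanylate-binding proteins Gbp4 and Gbp9 were at -1.63 and -1.59 (edgeR adjusted p = 0.0201 and 0.0265), Trim12c, a mouse gene of the TRIM family, at -1.86 (edgeR adjusted p = 0.0386) and Ifi203, a mouse protein of the AIM2-like receptor family, at -1.11 (edgeR adjusted p = 0.0454). Gbp4 and Gbp9 belong to a family of similar genes, so reads may be shared among them. The higher genes were Ifitm3 and Ifitm2, small membrane proteins that block viral fusion, at 1.57 and 1.13 (edgeR adjusted p = 0.0168 and 0.0348). Ifitm3 had 84.0, 70.1 and 145 CPM in knockout and 30.7, 38.0 and 32.3 CPM in wild type. With the offsets none of these 6 passed (edgeR, smallest adjusted p = 0.0685). Their signs were the same, and Ifi203 and Ifitm2 were at -0.42 and 0.42. Over all these lists 5 of 99 tested genes were lower, or 5.05%, and 2 were higher. The lower share is below the 7.52% of all tested genes.

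The summed levels of 4 marker lists of other cells did not overlap between the groups, those of macrophages, mural cells, B cells and stromal cells. The summed level of the 10 macrophage markers was 249 to 526 CPM in knockout and 122 to 232 CPM in wild type, where Lyz2 was higher (log2 fold change 1.43, edgeR adjusted p = 0.0401), Cd163 lower (-2.44, edgeR adjusted p = 0.0479, 0 counts in knockout library 3) and 8 did not pass. Lyz2 carried most of that sum, and the other 9 overlapped, at 95.4, 51.9 and 67.5 CPM in knockout and 62.3, 71.7 and 53.8 CPM in wild type. The 6 endothelial markers overlapped, at 277 to 380 CPM in knockout and 278 to 514 CPM in wild type, with Tek and Flt1 lower (-1.21 and -1.24, edgeR adjusted p = 0.0401 and 0.0442). The 4 mural cell markers summed to 354 to 758 CPM in knockout and 768 to 1207 CPM in wild type, with 1 of 4 higher (Acta2, log2 fold change 0.99, edgeR adjusted p = 0.0356) and 0 lower in edgeR. That sum was mostly Rgs5, which did not pass (log2 fold change -0.98, edgeR adjusted p = 0.0770). The sum of the other 3 mural markers lay the other way. It was 144, 98.1 and 107 CPM in knockout and 62.9, 70.8 and 54.03 CPM in wild type. Most of it was Acta2, which averaged 107.9 CPM in knockout and 54.47 CPM in wild type. Myh11 was at -0.12 and Notch3 at 0.14, each with overlapping groups, and neither passed. The 4 B cell markers summed to 3.57 to 4.60 CPM in knockout and 1.75 to 2.53 CPM in wild type, with 0 of the 2 tested past the threshold and Cd79a at 0 in wild-type library 3. The 4 stromal markers summed to 393 to 462 CPM in knockout and 328 to 388 CPM in wild type with 0 calls in edgeR, DESeq2 and limma-voom. Without Dcn the other 3 stromal markers overlapped. DESeq2 called 2 macrophage, 3 endothelial and 1 mural marker lower and 1 macrophage and 1 mural marker higher. In limma-voom 0 macrophage and 0 endothelial markers passed, and 1 mural marker was higher. The part of these cells in the members' changes was not tested.

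The remaining marker lists overlapped between the groups. The 6 T cell markers summed to 2.05 to 4.60 CPM in knockout and 1.62 to 2.20 CPM in wild type, and the 4 natural killer cell markers to 2.38 to 5.41 CPM in knockout and 0.718 to 2.87 CPM in wild type. Dendritic cell markers were at 15.4 to 18.5 CPM in knockout and 12.1 to 19.2 CPM in wild type, nearly all of it Zbtb46, with Flt3 and Xcr1 at 0 to 3 counts a library. Neutrophil markers were at 29.9 to 241 CPM in knockout and 4.49 to 122 CPM in wild type. Skeletal muscle markers were at 18.0 to 61.3 CPM in knockout and 20.5 to 588 CPM in wild type, where wild-type library 3 alone was high. No tested gene of these lists passed (edgeR, 1 at an unadjusted p under 0.05, which was Gzma; 0 in DESeq2 and limma-voom), and 0 of the 6 T cell markers had enough counts for the test.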

How the data were processed

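Raw counts per Ensembl gene, 1 file per library, were deposited by the authors without normalization. STAR 2.5.4b and build mm9 are named, per the submitters' processing notes; no source used here gives the counter, its strand setting or the annotation release. Per the labels' protocols, the fat cells were the floating layer after collagenase digestion, and a KAPA kit served for the mRNA libraries. Symbols, transcript lengths and GC content came from GENCODE M21 (GRCm38) by identifier: 32897 of 37620 identifiers matched, and the rest held 0.178% of counts.

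Counts were fitted in R 4.3.3 with edgeR 4.0.16 (filterByExpr with minimum count 10 and total 15, TMM, robust two-sided quasi-likelihood F test, newer method). CPM uses TMM-scaled library sizes. The SE given with an edgeR fold change is its absolute value divided by the square root of the F statistic. The range of library totals is given with the results. Offsets were smooth trends of each library's log2 ratios (prior count 2) on length and GC (mgcv 1.9.3, basis size 6). Other alternatives were RLE, upper-quartile and total-count scaling, DESeq2 1.42.0, limma-voom 3.58.1, no filter, a filter of 1 CPM in 3 libraries, a replicate block, leaving out each library, and, chosen after seeing the data, edgeR's legacy method. Similar transcripts were found with blastn 2.17.0 (at least 85% identity over 200 bases). Promoter windows are from RefSeq. The main edgeR fit was tested on simulated counts with known changes and no length trend. The offset fits, DESeq2 and limma-voom were not part of that check.

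The members and lists were chosen with earlier results of these data known. All members are named; library values are given for those past the threshold and for the highest per kilobase of each sub-group, and for others singled out after their values were seen, Ifnar2 among them. In each further list the genes past the threshold are named, with Irf1 and Ifnar1. Some genes of the lists are not reported here by name. Of 144 genes in these lists, 131 had a row, 1 of them by an older symbol.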

Additional observations from a re-analysis of the deposited data

How the results depend on the processing

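The 8 lower members kept a negative log2 fold change under all 18 alternatives. Their count by adjusted p was 6 with RLE, upper-quartile scaling and limma-voom, 7 with the legacy method, 8 with the 1 CPM filter, and 9 with total counts, DESeq2 and no filter. With each library left out it was 0 to 10 (higher members 0 to 1), and with offsets on the longest transcript, on the median transcript and on the longest with a replicate block it was 0, 0 and 0.

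Over all genes, lower calls numbered 1389 with total counts, 0 to 1383 with a library left out, and 0, 142 and 0 with the 3 kinds of offsets. Higher calls numbered 29 with total counts, 493 with DESeq2, 113 with limma-voom, 0 to 688 with a library left out, and 1, 83 and 0 with the offsets. Higher genes were 17.8% of calls as reported, 2.05% with total counts, which moved the median of all genes to -0.23, and 25.8% with upper-quartile scaling.

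Receptors, kinases and STATs had 3 lower calls with total counts, 2 with DESeq2 and 0 to 3 with a library left out. Sensing adaptors had 0 to 3 with a library left out and 0, 0 and 0 with offsets. Interferon regulatory factors had 1 lower with total counts, and 0 to 1 lower and 0 to 1 higher with a library left out. Negative regulators had 1 lower with total counts, DESeq2 and no filter, 0 to 1 with a library left out, and 1 higher with DESeq2. Further interferon-stimulated genes had 8 lower with DESeq2, 2 with limma-voom, 0 to 7 with a library left out and 0, 0 and 0 with offsets; 4 were higher with upper-quartile scaling, 1 with total counts, 5 with DESeq2, 0 to 4 with a library left out, and 0, 1 and 0 with offsets.

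Signs turned for 7 members that did not pass. Dhx58 was at -0.0588 with total counts, at -0.074, -0.0787 and -0.0409 with the 3 kinds of offsets and at -0.0927 to 0.39 with a library left out. Zbp1 was at 0.0121 with upper-quartile scaling and at -0.29 to 0.20 with a library left out, and Oas1a at -0.21 to 1.10. Irgm1 was at -0.18 with total counts and at -0.0003 to 0.15 with a library left out. Usp18 was at -0.0722 and -0.087 with offsets on the longest transcript without and with the block. Cmpk2 was at 0.0243, 0.11 and 0.0367 with the offsets and at -0.28 to 0.0137 with a library left out. Bst2 was at -0.27 and -0.42 with offsets on the longest transcript without and with the block, and at -0.33 to 0.61 with a library left out. The cause was not tested.

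Deviations of same-numbered libraries from their group means correlated at 0.145, -0.534 and 0.032, and those of differently numbered libraries at -0.424 to 0.545. With 3 libraries a group, such values can neither show nor exclude pairs or a shared batch. With the replicate block, 976 genes were lower and 223 higher, and 9 members were lower, the 8 and Gbp3. The levels of Ifit1 and Ifit3b rest on under 20 counts in each knockout library, which limits their precision.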
